A study of Danio rerio with 4 samples.

Results

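CTCF occupancy along zebrafish chromosome 16 is described here by 1827 peaks, which are all the peaks that the deposited ChIP-seq list places on that chromosome. The whole list holds 37625 peaks, of which 36540 lie on chromosomes 1 to 25. The chromosome was chosen by its peak count, the highest of the 25, so the count itself is a description and was given no test. Its density, counts per bin, spacing and share of empty windows depend on that count, so their ranks are descriptions too. The next highest count was the 1787 peaks of chromosome 18.

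The list was made from 24 hpf (hours post fertilisation) embryos of the AB strain, labelled with the genotype ctcf{HPSH}. Embryos came from crosses of fish that carried 1 HA-tagged and 1 wild-type ctcf allele, and an HA antibody pulled down the tagged protein, so untagged CTCF was not assayed. The 2 ChIP replicates, each from 2000 embryos of independent crosses, were combined in 1 list. The series also holds 2 input DNA libraries of the same embryos. Whole embryos were used, so a peak is an average over all their cell types.

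CTCF is a DNA-binding protein with many zinc fingers. In vertebrates it halts cohesin as cohesin extrudes chromatin loops, so that pairs of CTCF sites tend to mark loop anchors and the borders of topologically associating domains. It is essential for development in vertebrates, and CTCF sites within Hox gene clusters are known in mammals to separate active from silent genes. Zebrafish chromosome 16 carries such a cluster, with hoxa2b, hoxa9b, hoxa10b, hoxa11b and hoxa13b in the RefSeq table of the assembly GRCz12tu. The peaks are in danRer10 coordinates, so genes were not placed among them.

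Each peak of the list has limits, a summit and the authors' score, a whole number whose scale is not stated. Scores are used only to rank peaks and to give medians in their own units. The list holds neither values per replicate nor read counts. The sequencing depth behind it is unknown, so a site with no peak was not detected and is not shown to be unbound. Intervals given with counts are exact Poisson intervals at the 95% level and cover counting error only. They treat peaks as independent. The variance of the 1 Mb bin counts of chromosome 16 was 7.41 times their mean, so the intervals are probably too narrow.

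Chromosome 16 held more peaks per Mb than most chromosomes. It spanned 55.4 Mb up to where its last peak ends, and its 1827 peaks (interval 1744 to 1913) gave 33.0 peaks per Mb (interval 31.5 to 34.5). This was the fourth highest density of the 25 chromosomes. The 10 chromosomes whose spans lay within 5 Mb of that of chromosome 16 held 22.3 to 35.0 peaks per Mb, with a median of 26.8. Among these 10, only chromosome 18 was denser. With spans this close, a high rank in density largely follows from the count by which chromosome 16 was chosen. One chromosome set against 24 others cannot give a two-sided exact p below 0.08, so differences between chromosome 16 and the others are given as ranks and ranges, without a test.

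The higher count came from outside the outermost 2 Mb at each end. That part includes some of the dense stretch at the right end described below. The 2 Mb at each end held 245 peaks, or 61.25 per Mb, within the range of 51.5 to 75 per Mb on the 10 similar chromosomes and close to their median of 57.75. Between the ends there were 1582 peaks, or 30.8 per Mb, above 9 of the 10 similar chromosomes, whose median was 24.1. The ends were 1.99 times as dense as the rest. This was the third lowest such ratio of the 25 chromosomes, and the similar chromosomes had ratios from 1.66 to 3.15.

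Sorting peaks by their distance from the nearer end showed where chromosome 16 left the range of its peers. In the outermost 1 Mb it had 75 peaks per Mb against a median of 73.75 on the similar chromosomes, and 5 of the 10 exceeded it. From 2 to 5 Mb it had 47.7 per Mb against a median of 38.5, and 9 of the 10 were lower. Its right side had 59 per Mb in that class and its left side 36.3. At 5 to 10 Mb from an end it had 35.4 per Mb and at 10 to 15 Mb 29.3 per Mb, and in both classes all 10 similar chromosomes were lower, with maxima of 34.5 and 28.2. At 15 to 20 Mb it held 31.5 per Mb against a median of 19.9, and 1 of the 10 was higher, at 38.8. The sides of chromosome 16 differed in this class, with 45.2 per Mb (226 peaks) on the left and 17.8 per Mb (89 peaks) on the right. The central class, more than 20 Mb from both ends, held 21.7 per Mb against a median of 17.1. In it 2 of the 10 were higher, up to 38.6.

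**Figure D1:**
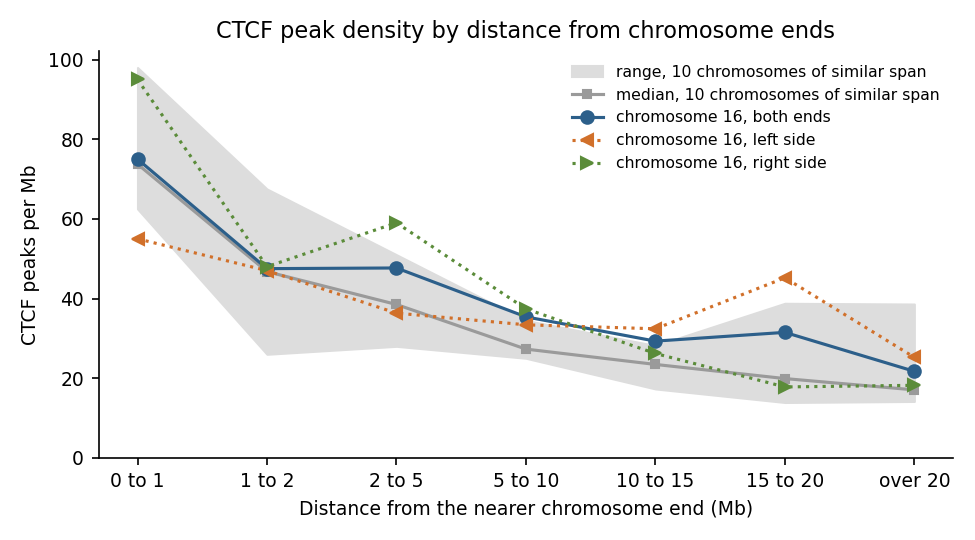
CTCF peaks per Mb (vertical axis) by distance from the nearer chromosome end in Mb (horizontal axis) for chromosome 16, for its left and right sides taken separately, and for the 10 chromosomes of similar span (grey line, median; band, lowest to highest). Chromosome 16 lies at the peers' median in the outermost 1 Mb (75 against 73.75) and above all 10 peers from 5 to 15 Mb.

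Chromosome 20 has almost the same span, 55.3 Mb, and held 1496 peaks, 331 fewer. Of that difference, 137 peaks lay at 15 to 20 Mb from an end, the class with 226 peaks on the left side of chromosome 16 and 89 on the right, 78 at 5 to 10 Mb and 58 at 2 to 5 Mb. At 1 to 2 Mb from an end chromosome 20 had more, 117 against 95. When the peaks of chromosomes 1 to 25 were divided into 4 classes at the quartiles of their scores, the surplus of chromosome 16 over chromosome 20 was 117 peaks in the lowest class, 85 and 77 in the middle classes and 52 in the highest. Chromosome 16 thus held more peaks than chromosome 20 in every score class, and this surplus was larger among low scores. Against all 10 similar chromosomes, low scores were not in excess. The lowest class held 24.7% of the peaks of chromosome 16 (median of the 10, 24.9%) and the highest 22.9% (median 24.4%).

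Counts per 1 Mb bin ran from 8 to 83 along chromosome 16, with a median of 30 over its 55 whole bins (quartiles 21 and 43.5). The similar chromosomes had medians from 19 to 30. Bins were called dense at or above 34 peaks and sparse at or below 15, the quartiles of all 1328 whole bins of the 25 chromosomes. By construction 25.8% of all bins were dense and 25.4% sparse. On chromosome 16, 21 of 55 bins (38.2%) were dense and 4 (7.27%) were sparse. Few bins were thinly occupied, and 20% of them held 20 peaks or fewer, against a median of 46.9% on the similar chromosomes.

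Neighbouring bins tended to be alike (Spearman's rho = 0.590 over 54 pairs of adjacent bins, a description of 1 chromosome and not of independent samples). A dense stretch was defined as a run of at least 3 dense bins. Chromosome 16 held 3 of them, at its left end (0 to 3 Mb), in its interior (15 to 19 Mb) and at its right end (49 to 55 Mb). They covered 13 bins in all. No run of 3 or more sparse bins occurred on chromosome 16, nor on chromosome 18, and the 10 similar chromosomes held from 0 to 3 such runs, the longest of 7 bins. With only the peaks at or above the median score, and the quartiles of their own bins, 1 sparse run of 3 bins appeared at 33 to 36 Mb.

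**Figure D2:**
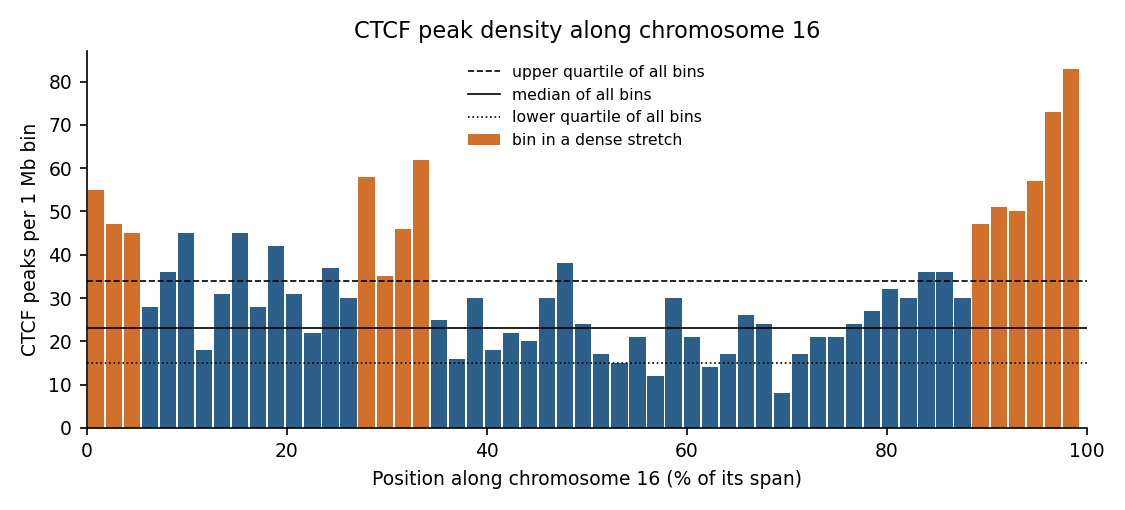
CTCF peaks per whole 1 Mb bin (bars) along chromosome 16, with position as a percentage of its span on the horizontal axis. Horizontal lines mark the quartiles and median of all 1328 bins (15, 23 and 34 peaks), and orange bars belong to the 3 dense stretches at the left end, in the interior and at the right end, where the last whole bin reaches 83 peaks.

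The right end was the densest stretch of the chromosome. Between 49 and 55 Mb it held 361 peaks, 19.8% of those on the chromosome, or 60.2 per Mb (interval 54.1 to 66.7). The 5 densest bins included 54000001 to 55000000 with 83 peaks, 53000001 to 54000000 with 73 and 52000001 to 53000000 with 57. From 52 Mb on, each bin held more peaks than the one before it. The last, partial bin of 0.377 Mb held a further 23 peaks, or 61.0 per Mb. The outermost 2 Mb held 143 peaks at the right end and 102 at the left.

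Peaks of the right stretch scored above the chromosome's own level. Their median score was 392, against 367 for all 1827 peaks of the chromosome, which include them. The highest-scoring peaks, defined as those scoring at least 750, make up 10.0% of the peaks on chromosomes 1 to 25 by construction, and they made up 15.8% of the right stretch (57 peaks). The bin at 53000001 to 54000000 alone held 16 such peaks. The level was not particular to this stretch. Over the first 15 Mb of the chromosome the median score was 394, and 14.1% of peaks scored at least 750. On 22 other chromosomes, 36 dense stretches reached within 5 Mb of an end. Of these, 5 were denser than the right stretch of chromosome 16 and 5 had a larger share of high scores. Their median scores had a median of 386.5, and 15 of the 36 were higher than 392.

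The left end was more modest. Its first 3 Mb held 147 peaks, or 49 per Mb (interval 41.4 to 57.6), with 55, 47 and 45 peaks in its bins, and 24 of the 36 comparable stretches were denser. The first peak of the chromosome lay at 12362 to 12639 with a score of 516, and the last at 55376624 to 55376826 with a score of 285. When bins were started at 0.5 Mb in place of the first base, the left stretch no longer met the definition, and a run from 7.5 to 11.5 Mb did.

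The interior stretch lay between 15 and 19 Mb. It held 201 peaks, or 50.25 per Mb (interval 43.5 to 57.7), about the density of the left end, in bins of 58, 35, 46 and 62 peaks. Its peaks were lower-scoring, wider and closer together than those elsewhere on the chromosome. Their median score was 343 against 369.5 for the other 1626 peaks, and their median width was 311 bp against 257 bp. Of the stretch's peaks, 12 (5.97%) reached a score of 750, against 6.07% of those from 19 to 43 Mb. The low score was not particular to the stretch. The median was also 343 from 43 to 49 Mb, and it was 338 from 30 to 35 Mb. These contrasts were chosen after the values had been seen and were not tested.

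The interior stretch held many closely spaced peaks. Of all neighbouring pairs on the 25 chromosomes, 12.9% had centres within 2 kb, and on chromosome 16 as a whole 13.8% did (252 of 1826). Within 15 to 19 Mb the share was 33.0% (66 of 200 pairs), against 17.5% in the right stretch and 13.0% in the left. The median distance between neighbours was 7502 bp in the interior stretch, 9822 bp in the denser right stretch and 13960 bp in the left. Of the stretch's 40 windows of 100 kb, 7 held 10 or more peaks and together 44.8% of its peaks, while 4 were empty. Of the chromosome's 553 windows, 19 held 10 or more peaks, 9 of them between 49 and 55 Mb, and 51 (9.22%) were empty.

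Peaks of at least 1000 bp gathered in the same stretch. They make up 1.26% of all peaks on the chromosomes, and 24 of the 1827 on chromosome 16 (1.31%). Of these 24, 16 lay between 15 and 19 Mb, so that 7.96% of the stretch's peaks were that wide, against 0.492% of the others. The 5 widest peaks of the chromosome all lay between 15 and 20 Mb. They were found at 19684161 to 19686324 (2164 bp, score 800), 18940095 to 18942100 (2006 bp, score 967), 17940553 to 17942524 (1972 bp, score 436), 17902857 to 17904731 (1875 bp, score 574) and 15646777 to 15648411 (1635 bp, score 536). Among the last 3 of these the summit lay within the first 14.2% of the peak's width, whereas it was near the middle of the first 2.

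Off-centre summits were also more frequent in the interior stretch. A summit in the outer 25% of the peak's width on either side was found in 39 peaks of the interior stretch (19.4%) and in 6.89% of the other peaks of chromosome 16. Such summits went with width on the whole chromosome, in 62.5% of wide peaks against 8.26% of all peaks. Among wide peaks they were found in 10 of 16 inside the stretch and 5 of 8 outside it. Most off-centre summits belonged to narrower peaks, however. Wide peaks made up 10 of the 39 off-centre peaks inside the stretch and 5 of the 112 outside it. The upper quartile of width was 496 bp inside the stretch and 345 bp outside it. Whether width accounts for the larger share of off-centre summits in the stretch was not tested. The wide peaks of the stretch also scored low for their width. The 16 wide peaks of the stretch had scores from 320 to 967 with a median of 467.5, and the 8 wide peaks elsewhere had scores from 285 to 2500 with a median of 714.5. Width and score were correlated across the chromosome's peaks (Spearman's rho = 0.504, 1827 peaks, which share libraries and a caller). Within the stretch rho was 0.368, and over the other peaks it was 0.543.

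**Figure D3:**
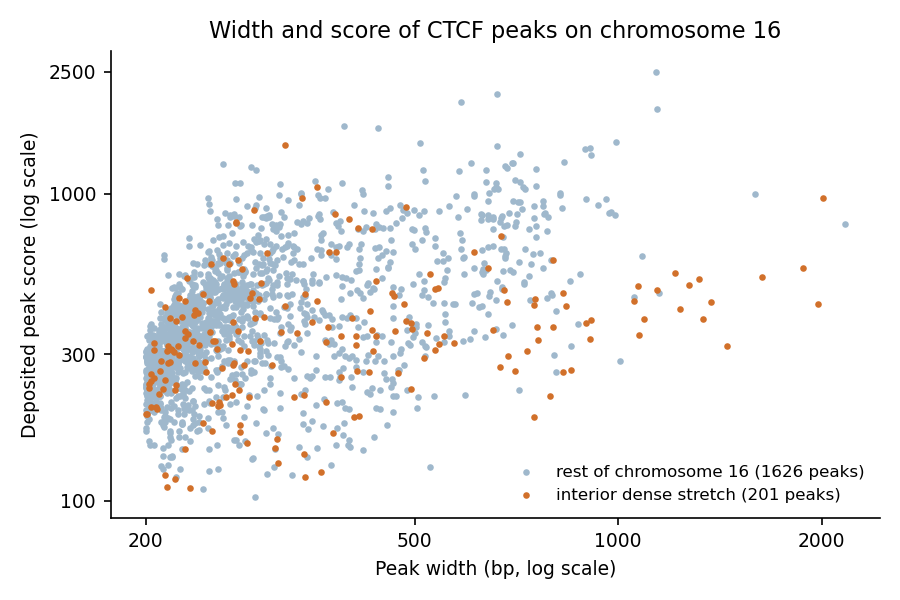
Width in bp (horizontal, log scale) and the authors' score (vertical, log scale) of the 1827 CTCF peaks of chromosome 16, each point a peak. Orange points are the 201 peaks between 15 and 19 Mb, which supply 16 of the 24 peaks of 1000 bp or more, at scores from 320 to 967.

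Runs of peaks in which each centre lay within 2 kb of the next were most frequent in the interior stretch. Such runs are built from the close pairs already counted, so they are not a separate trait. Chromosome 16 held 161 isolated pairs and 38 runs of 3 or more peaks. Of the 38, 18 started between 15 and 19 Mb, where 11.0% of the chromosome's peaks lay. The longest runs had 5 peaks, and all 3 of them lay there, at 16902713 to 16907232, 17900188 to 17905806 and 18090186 to 18093748, over 4.52, 5.62 and 3.56 kb. Their highest scores were 507, 574 and 351. One run of 4 at 15764602 to 15768199 included a peak scoring 1442, the ninth highest of the chromosome.

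Merging calls that lie close together changed the interior stretch more than the right end. Joining removes more calls where more pairs are close, so this order follows from the spacing. Of the interior pairs 33.0% lay within 2 kb, against 17.5% at the right end. When peaks with gaps under 500 bp were joined, the density between 15 and 19 Mb fell from 50.25 to 38.75 per Mb and the stretch no longer met the definition of a dense one, while the density between 49 and 55 Mb was 56.2 against 60.2 per Mb. With gaps under 2000 bp joined, the values were 33.0 and 48.2 per Mb. When only peaks at or above the median score were kept, the interior stretch counted as dense against the quartiles of those peaks' bins, with 21.25 per Mb. Several neighbouring sites and 1 broad region called as several peaks cannot be told apart from the list.

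Interior stretches with similar values were found on other chromosomes. More than 5 Mb from both ends, 8 dense stretches were found on 8 other chromosomes. Their shares of wide peaks ran from 0% to 6.74%, all below the 7.96% of chromosome 16, and their shares of pairs within 2 kb ran from 9.48% to 33.9%. The closest in character were on chromosome 1 (26 to 30 Mb, 6.74% wide and 25% of pairs within 2 kb), chromosome 20 (11 to 14 Mb, 6.71% and 30.1%) and chromosome 18 (27 to 34 Mb, 6.25% and 33.9%). These 4 stretches, that of chromosome 16 included, also had the largest shares of off-centre summits among the 9, from 12.8% on chromosome 20 to 19.4% on chromosome 16. The median score on chromosome 16, 343, was the lowest of the 9, whose highest was 378. The genes and repeats of these stretches were not analysed here. Wide peaks also gathered outside dense stretches, with 13 of the 20 on chromosome 14 at 10 to 15 Mb. On the 10 similar chromosomes the 5 Mb segment with most wide peaks held 6 to 20 of them, against 17 on chromosome 16.

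**Figure D4:**
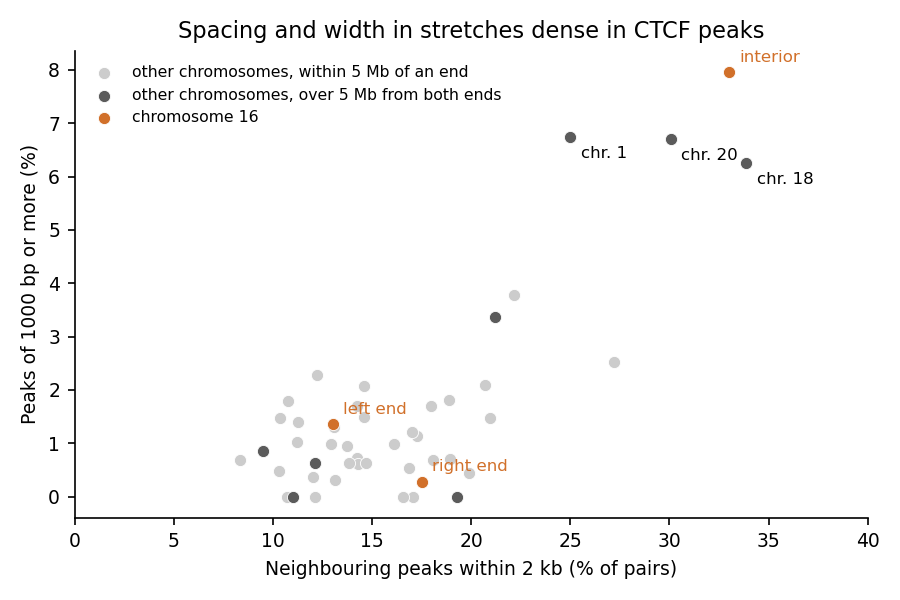
Share of neighbouring peaks within 2 kb (horizontal, % of pairs) and share of peaks of 1000 bp or more (vertical, %) in every dense stretch of the 25 chromosomes, each point a stretch. The interior stretch of chromosome 16 (33.0% and 7.96%) lies with those of chromosomes 1, 18 and 20, and its end stretches (13.0% and 1.36%, 17.5% and 0.277%) lie among the other end stretches.

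The 10 highest-scoring peaks lay mostly in the first 15 Mb, and 1 of them lay in the interior dense stretch. For scale, the first 15 Mb held 29.6% of all peaks of the chromosome. The segment from 5 to 10 Mb had the highest median score of the 11 whole 5 Mb segments, 451 (quartiles 316.5 and 658), with an ordinary density for the chromosome of 33.4 per Mb. In it, 37 of 167 peaks (22.2%) scored at least 750. On the 10 similar chromosomes the highest median of any 5 Mb segment lay between 394.5 and 441.5, and the largest share of high scores in a segment was 20.3%. The bin at 5000001 to 6000000 had a median score of 504, the highest of the 55 bins. Over all bins, the number of peaks was only weakly related to the median score (Spearman's rho = 0.166, 55 bins) and more closely to the share of peaks scoring at least 750 (rho = 0.385) and to the median width (rho = 0.457).

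**Figure D5:**
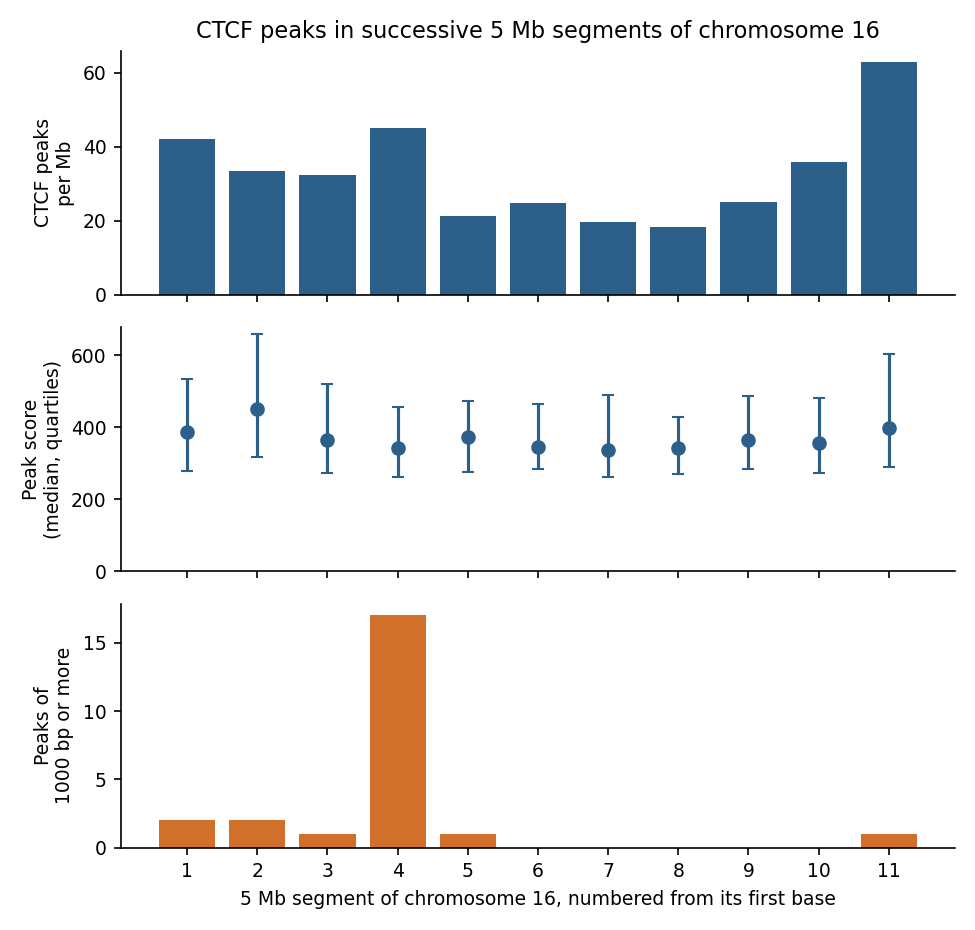
Peaks per Mb (top), median peak score with quartiles as bars (middle) and number of peaks of 1000 bp or more (bottom) in the 11 whole 5 Mb segments of chromosome 16, numbered from its first base. Scores are highest in segment 2 (median 451), wide peaks gather in segment 4 (17 of 24), and density is highest in segment 11 (62.8 per Mb).

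The highest score on chromosome 16, 2500, belonged to a peak at 2048254 to 2049392, ranked 29 in the whole list. The second, 2121, lay next to it at 2050991 to 2051652, with 2.50 kb between their centres. These were the only peaks of the chromosome above 2000. The third, at 7655208 to 7655793, scored 1988, and it was the last of the chromosome among the 100 highest-scoring peaks of the list. The fourth, at 5446825 to 5447967, scored 1900 and the fifth, at 11349882 to 11350274, scored 1664.

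The remaining 5 of the 10 highest scores fell from 1645 to 1436. A pair of them lay near the right end, at 55220142 to 55220583 (score 1645) and 53895417 to 53896410 (score 1476). The others were at 13524197 to 13524705 (1465), 15767878 to 15768199 (1442) and 5287845 to 5288505 (1436). None of the 10 lay from 19 to 43 Mb or from 43 to 49 Mb. Those parts held 28.0% and 10.5% of the chromosome's peaks, and their bounds were chosen after the values had been seen. Of the 10, 7 had another peak with its centre within 3 kb, and the most solitary, at 13524197, was 26.3 kb from its nearest neighbour. The 2 highest-scoring peaks were each other's nearest neighbour. The share of all peaks with a neighbour within 3 kb is not given here, so the 7 are not read as unusual. Within the shorter distance of 2 kb, 24.7% of the chromosome's peaks had a neighbour. Of the 10, only those at 5446825, 11349882, 15767878 and 53895417 did. Widths of the 10 ran from 322 to 1143 bp. All were above the chromosome's median of 261 bp, but none was among its 5 widest peaks.

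The median score and width of the peaks of chromosome 16 as a whole lay within the ranges of the similar chromosomes. The median score of 367 ranked 14th of the 25 chromosomes, and the similar chromosomes ran from 357 to 388. Scores of at least 750 were held by 10.6% of its peaks (193), against 7.41% to 11.98% on the similar chromosomes. The upper quartile of its scores, 509.5, was below that of 9 of the 10 similar chromosomes (median 526.6). The lowest score was 103, and 53 peaks scored over 1000, a count not compared with other chromosomes. The median width was 261 bp (quartiles 224 and 363.5), against 261 to 270 bp on the similar chromosomes, 9 of which had a larger median. Of the peaks, 86.6% were no wider than 500 bp, a share not compared with other chromosomes. Peaks covered 614 kb, or 1.11% of the span.

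From 19 to 43 Mb the chromosome was sparser. These bounds were chosen after the values had been seen. The 24 bins held 511 peaks, or 21.3 per Mb, which is 28.0% of the peaks on 43.3% of the span. All 4 sparse bins of the chromosome lay here, at 38000001 to 39000000 with 8 peaks (interval 3.45 to 15.8), 31000001 to 32000000 with 12, 34000001 to 35000000 with 14 and 29000001 to 30000000 with 15. The fifth lowest bin, at 20000001 to 21000000, held 16. One dense bin with 38 peaks (26000001 to 27000000) stood among them.

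Few peaks from 19 to 43 Mb had high scores. The median score was 356, and 31 of its 511 peaks (6.07%) scored at least 750. The median distance between neighbours was 29141 bp, against 17165 bp over the first 15 Mb. No explanation for the low density was tested, and assembly gaps were not removed.

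Neighbouring peaks on chromosome 16 lay a median of 16435 bp apart (95% interval 15194 to 17709, quartiles 5485 and 39652). Of the 10 similar chromosomes, 9 had longer medians, up to 23515 bp. Compared with them, chromosome 16 had more pairs at intermediate distances, with 44.5% of pairs at 10 to 50 kb against 37.1% to 43.9%, while its 6.30% of pairs over 100 kb lay within their range of 4.82% to 11.3% (median 9.75%). Shares at close range lay within the peers' ranges. Centres within 1 kb of each other made up 7.17% of pairs (131), and the smallest gap between the limits of 2 peaks was 102 bp.

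Long stretches with no peak were rare. Of 553 whole windows of 100 kb, 51 were empty (9.22%), against 9.22% to 22.4% on the similar chromosomes, of which 9 had a larger share. Empty windows made up 14.2% of those from 19 to 43 Mb (34 of 240) and 2.50% of those from 43 to 55 Mb (3 of 120). The median window held 3 peaks. The 5 fullest were 15600001 to 15700000 with 17 peaks, 54600001 to 54700000 with 16, 15800001 to 15900000 and 17900001 to 18000000 with 14 each, and the first 100 kb with 13. Windows 18000001 to 18100000 and 54700001 to 54800000 also held 13.

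The longest interval with no peak did not lie between 19 and 43 Mb. It ran from 11664210 to 12163193 (499 kb), between peaks scoring 480 and 697, in the segment from 10 to 15 Mb, which had 32.4 peaks per Mb. The next 4 all lay between 29 and 39 Mb, at 34787008 to 35077395 (290.4 kb), 29990301 to 30275912 (286 kb), 38315411 to 38587962 (273 kb) and 35193665 to 35452481 (259 kb). A distance over 200 kb between neighbouring centres occurred 14 times on the chromosome. The longest such distance on the 10 similar chromosomes ranged from 0.415 to 0.824 Mb, and 6 of the 10 exceeded the 0.499 Mb of chromosome 16.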

How the data were processed

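Per the submitters' processing notes, the build was danRer10 and tools named without a role were MACS2, deepTools 3.0.1, Bowtie2 2.2.5, Picard 1.45, cutadapt 1.3, FastQC 0.9.3, SAMtools 1.1 and CASAVA. Per the file headers, peaks were called on combined replicates. The caller's settings and how the input was used were not given in the sources used here. The deposited score is a whole number of unstated scale, and the columns of signal, p and q held only 0. Per the labels' protocols, chromatin was fixed in 1% formaldehyde for 15 min and sheared to 100 to 200 bp, and reads were single-end, 100 bases long.

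Peaks were placed by their centres in whole bins counted from the first base. A chromosome's ends were its base 1 and the last base of its final peak. Named regions followed a rule: the 10 highest-scoring and 5 widest peaks, the 5 densest and sparsest bins, the 5 densest 100 kb windows, the 5 longest intervals, the outermost peaks and the dense or sparse stretches. The runs of close peaks, the parts from 5 to 10 Mb and from 19 to 43 Mb, the limit of 1000 bp and the off-centre summits were chosen after values were seen. The chromosome, rules and lists were chosen with earlier results of these data known. No test was made, because replicates were pooled and peaks of 1 list are not replicates. Intervals of medians come from binomial order statistics, which treat the values as independent, so they too are probably too narrow. Functions were tested on simulated peaks. Python 3.11.15, numpy 2.4.6, scipy 1.17.1, pandas 2.3.3 and matplotlib 3.10.9 were used. No danRer10 sequence or annotation was used, so no sequence of a peak is shown.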

Additional observations from a re-analysis of the deposited data

How the results depend on the processing

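Of 47 alternatives, 33 were planned and 14 added after seeing the data. In 26 the value stayed within the range set for its result. The peak count and the bins in dense stretches were allowed 1.5 times either way. The rank and the bins in sparse stretches had to stay the same, and the other results had an interval around the reported value. Only the end ratio and the correlation of width and score have a direction, and neither turned. The other results could not turn, so their lack of a turn shows nothing. Keeping peaks at or above the median score left 912 peaks, 16.5 per Mb, a median bin of 14, a fullest bin of 49, a median distance of 32368 bp, 7.35% of pairs within 2 kb, a median width of 297.5 bp and a median score of 510. The lower counts and densities, the longer distance and the higher score follow from its construction. Over all peaks width and score had rho = 0.504, so higher-scoring peaks were also wider. Dropping peaks also breaks up close pairs, and how much of their lower share this makes up was not tested. The end ratio rose to 2.29, and the cause was not tested. The setting also gave 1 sparse stretch of 3 bins (33 to 36 Mb), where all peaks gave none. Merging gaps under 500 bp gave 30.8 per Mb, a median distance of 18232 bp and 6.87% of pairs within 2 kb. Pairs within 1 kb were 7.17%. The lower density, longer distance and fewer close pairs after merging, and the fewer pairs at the shorter limit, follow from construction. Ends of 1 Mb gave a ratio of 2.39. Among chromosomes within 3 Mb of its span, chromosome 16 ranked 1 in density, since chromosome 18 left the group, and it ranked 2 within 5 or 10 Mb. No paired analysis was possible because replicates had been pooled before deposit, and for the same reason no replicate could be left out. Depth is unknown, so sites of low occupancy may be missing.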
